A study of Homo sapiens with 6 samples.

Results

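Amino acid transporters were taken as the probe sets whose single gene symbol in the platform annotation starts with SLC1A, SLC3A, SLC6A, SLC7A, SLC36A, SLC38A or SLC43A, which gave 62 of the 19775 gene symbols on the array and 147 of its 54675 probe sets. Of these symbols, 56 name members of the carrier families, 5 name antisense RNAs, and SLC7A6OS names a gene beside SLC7A6 that is not a carrier. The RNA came from MDA-MB-231 cells, a human line long in culture and derived from a breast cancer, basal and mesenchymal-like in kind, transduced with a lentivirus for GATA3 and enhanced green fluorescent protein (GFP) or with a lentivirus for enhanced GFP alone, and then sorted by that fluorescence. GATA3, the introduced gene, encodes a zinc finger factor that luminal mammary cells use. Each group had 3 arrays, and both groups share the cell line, the viral transduction and the sort. The labels do not say whether the triplicates were separate cultures, so the p-values rest on differences among arrays of a group that may be technical alone.

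Amino acids cross the plasma membrane through families of carriers that differ in substrates and driving force. Some couple uptake to sodium or protons, and others exchange 1 amino acid for another. The exchangers of the SLC7 light chains work as pairs with a heavy chain, SLC3A2 (4F2hc, CD98) or SLC3A1 (rBAT). In tumour cells these carriers are best known for supplying leucine and glutamine, which the mTORC1 kinase complex senses, and cystine, from which glutathione is made. Many carrier genes are raised by the transcription factor ATF4 when amino acids are short.

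Expression values from GCRMA were read as log2, and a probe set was tested when it lay over 4, taken as the detection level, on at least 3 of the 6 arrays. The introduced gene went against its label. The brightest GATA3 probe set read 7.93, 7.94 and 7.32 in the arrays labelled GATA3, against 9.37, 9.35 and 9.45 in the GFP control, a log2 change of -1.66 (SE 0.18, limma adjusted p 0.00238). The other tested one read 3.41, 3.28 and 3.04 in the arrays labelled GATA3, all under the detection level, against 4.73, 4.38 and 5.07 in the GFP control (adjusted p 0.00444). Whether they read the introduced sequence is not known, so each direction given here rests on the label. GATA3 replicate 3, whose raw-file name alone carries another date, correlated with its group at 0.984 and 0.986, against 0.997 between the other two arrays labelled GATA3 and 0.995 to 0.996 within the GFP control. All 6 mesenchymal-type markers of the line were over the detection level. VIM, MSN and FOSL1 among them were lower in the arrays labelled GATA3, with log2 changes of -0.32, -0.24 and -0.72 (limma adjusted p 0.0158, 0.0342 and 0.000532). CD44, CAV1 and AXL did not pass, with changes of -0.073, -0.216 and 0.435. Over all 6 markers the mean was 13.56 to 13.86 in the arrays labelled GATA3 and 13.81 to 13.95 in the GFP control, so the groups overlapped. Of 8 luminal markers, 6 were over the detection level. The mean over all 8 was 7.94 to 8.06 in the arrays labelled GATA3 and 7.31 to 7.36 in the GFP control. KRT8, KRT18, KRT19 and ERBB3 were higher, and PGR and FOXA1 stayed under the detection level. ESR1 and SPDEF did not pass (limma adjusted p 0.441 and 0.559). They repeated 4.02 on 5 arrays and 7.65 on 4, and such repeated values need not be signal. No leukocyte or endothelial marker measured (3 and 4) was over the detection level in 3 arrays, and of 5 fibroblast or pericyte markers 2 were. The part of these marker differences in the results was not tested. A bulk array cannot tell a lower level per cell from fewer cells that hold the RNA.

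Of the 147 probe sets, 52 (35.4%) were tested, and they stand for 28 symbols, 27 of them in carrier families. With each gene given by its brightest tested probe set, 5 genes were higher in the arrays labelled GATA3, 8 were lower and 15 did not pass an adjusted p of 0.05. That is 46.4% of the tested genes, beside 29.3% of all 10814 tested genes, of which 14.8% were higher and 14.5% lower. Over probe sets, 10 were higher and 12 lower of 52 (42.3%), beside 25.3% of all 23785 tested, of which 11.3% were higher and 14.0% lower. That balance depends on how arrays are scaled. Of the calls over all probe sets, 44.8% were higher here, 51.7% with cyclic loess and 51.4% with median centring. The median log2 change was -0.04 over the 28 genes and -0.02 over all tested genes, so the changes went both ways around a centre close to that of the array. The groups did not overlap in 17 of the 28 genes (60.7%), beside 49.5% of all genes, and in 32 of the 52 probe sets, beside 46.0% of all. SLC1A1, SLC38A4 and SLC6A9 entered the test through 1 group alone, since all arrays of the other lay under the detection level, and such genes had to differ. Among the 25 others, 4 were higher and 6 lower. The shares over all genes include genes that entered through 1 group, and no share without them is given to set beside this count. Without GATA3 replicate 3, which leaves the arrays whose raw-file names carry the same date, 5 genes were higher and 8 lower, and all 13 calls remained.

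**Figure D1:**
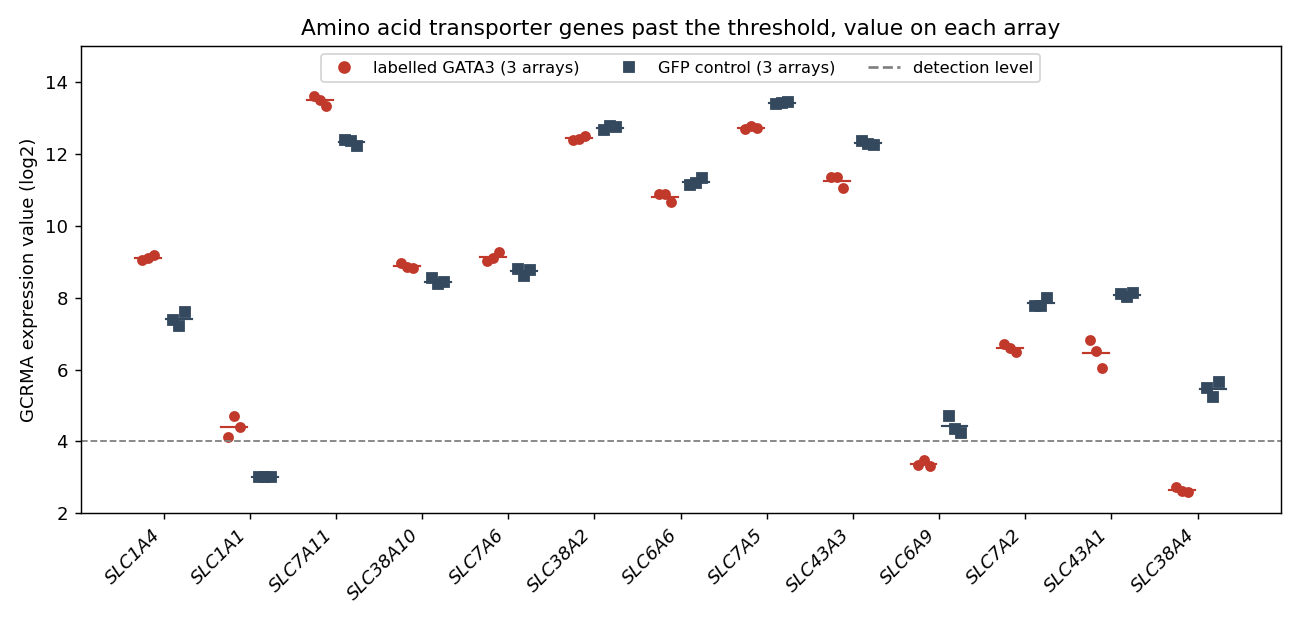
GCRMA expression value (log2) on each array for the 13 transporter genes past the threshold, with circles for the 3 arrays labelled GATA3, squares for the 3 GFP control arrays, short lines for the means and a dashed line at the detection level of 4. The groups do not overlap in any of the 13, which is no further support, since the genes were chosen by their adjusted p on these arrays. In SLC1A1, SLC6A9 and SLC38A4, 1 group lies wholly under the detection level.

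The sodium-coupled glutamate and neutral amino acid carriers of the SLC1 family differed between close relatives. SLC1A4 (ASCT1), which exchanges alanine, serine, cysteine and threonine, read 9.05, 9.09 and 9.19 in the arrays labelled GATA3, against 7.37, 7.20 and 7.61 in the GFP control. Every array labelled GATA3 lay above every GFP control array. SLC1A4 rose by 1.71 on the log2 scale (SE 0.12), 3.28-fold, with an adjusted p of 0.000468, the largest rise among the transporters. Its 2 other tested probe sets rose by 1.89 and 2.00. SLC1A5 (ASCT2), its closest relative in the family and a main route of glutamine uptake, read 11.71, 11.80 and 12.07 in the arrays labelled GATA3, against 11.98, 11.85 and 11.84 in the GFP control. The groups overlapped, and the change was -0.03 (95% confidence interval -0.28 to 0.22, adjusted p 0.852). SLC1A1 (EAAT3), which takes up glutamate, aspartate and cysteine, read 4.14, 4.70 and 4.40 in the arrays labelled GATA3, against 3.02, 3.01 and 3.01 in the GFP control. It was at least 1.33-fold higher (adjusted p 0.00184), with its values barely over the detection level and its other probe set near the floor of the array. The glutamate carriers SLC1A2, SLC1A3, SLC1A6 and SLC1A7 had no tested probe set and read 3.66 at most.

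The start regions of SLC1A4 and SLC1A5 are shown because they alone, among the start regions of tested transporters searched, hold TTGCATCA, a core of the amino acid response element bound by ATF4. Windows of 300 bases, from 250 before to 50 after each start listed by RefSeq (GRCh38.p14), were searched on both strands for TTGCATCA and for GATAA, a core of the site bound by GATA factors. Matches of the 2 motifs did not overlap in any member window. The table held 40 windows for 23 of the 28 tested genes. SLC43A3, SLC6A2, SLC6A6, SLC7A11 and SLC7A2 had no entry. TTGCATCA was in 2 of the 40 windows and in 304 of all 35116 (0.866%), and GATAA was in 5 of the 40 and in 22.7% of all. The genes with GATAA were SLC1A5, SLC36A4, SLC38A7, SLC38A9 and SLC7A8, none of them past the threshold. A match describes these letters and is no measured site. The SLC1A4 stretch (chr2:64989149-64989399, plus strand) runs to the end of the match at 1 of its 2 listed starts. The SLC1A5 stretch (chr19:46784815-46785064, minus strand) ends before 1 of its 3 listed starts and holds the match on the opposite strand. Both are written 5′ to 3′ on the strand of the gene, with the match in capitals.
SLC1A4: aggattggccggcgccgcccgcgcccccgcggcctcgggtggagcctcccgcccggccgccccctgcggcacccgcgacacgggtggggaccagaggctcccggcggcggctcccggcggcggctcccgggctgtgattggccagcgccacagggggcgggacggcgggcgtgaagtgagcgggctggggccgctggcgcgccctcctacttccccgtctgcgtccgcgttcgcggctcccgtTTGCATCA
SLC1A5: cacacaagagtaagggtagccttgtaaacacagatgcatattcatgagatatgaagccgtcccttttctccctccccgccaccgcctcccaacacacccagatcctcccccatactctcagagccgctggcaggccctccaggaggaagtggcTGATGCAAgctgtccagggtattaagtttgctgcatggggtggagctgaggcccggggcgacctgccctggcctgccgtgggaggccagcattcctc
Counted from the start, the match lies at -7 to 1 on the same strand in SLC1A4 and at -97 to -90 in SLC1A5. SLC1A4 rose 3.28-fold and SLC1A5 had the interval around no change given above. Whether either match bears on these values was not tested.

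The partners of SLC3A2 moved in opposite directions, while the heavy chain did not pass the threshold. SLC7A11 (xCT), the light chain that brings in cystine in exchange for glutamate, read 13.61, 13.50 and 13.34 in the arrays labelled GATA3, against 12.39, 12.36 and 12.22 in the GFP control. All arrays labelled GATA3 lay above all GFP control arrays. SLC7A11 rose 2.24-fold, a log2 change of 1.16 (SE 0.08, adjusted p 0.000503), and its 2 other tested probe sets rose by 1.32 and 1.35. SLC7A5 (LAT1), the light chain that brings in leucine and other large neutral amino acids, read 12.68, 12.78 and 12.71 in the arrays labelled GATA3, against 13.40, 13.43 and 13.45 in the GFP control. SLC7A5 fell 1.63-fold by its only probe set, a log2 change of -0.70 (SE 0.04, adjusted p 0.000167), with no overlap between the groups. SLC7A6 (y+LAT2), which exchanges arginine and neutral amino acids, read 9.02, 9.11 and 9.28 in the arrays labelled GATA3, against 8.81, 8.61 and 8.77 in the GFP control. It rose by 0.41 on the log2 scale (adjusted p 0.0285). Its 2 other probe sets read changes of 0.57 and 0.23 and did not pass. Its call was lost without GATA3 replicate 2 (adjusted p 0.0786) or GFP control replicates 1, 2 or 3 (0.0611, 0.0906 and 0.0814). SLC3A2, the heavy chain that carries these light chains to the membrane, read 12.07, 12.09 and 11.93 in the arrays labelled GATA3, against 12.19, 12.16 and 12.16 in the GFP control. The groups did not overlap, but its change of -0.14 (95% confidence interval -0.26 to -0.01) did not pass (adjusted p 0.110). SLC3A1, the heavy chain known from kidney and gut, reached 4.22 at most and was not tested. The light chain SLC7A8 (LAT2) read 4.10 on all 6 arrays by its one tested probe set. A value that repeats on every array over the detection level need not be signal. SLC7A7, SLC7A9, SLC7A10 and SLC7A13 lay at or close to the floor.

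The cationic carriers differed by gene and by probe set. SLC7A2 (CAT2), which carries arginine, lysine and ornithine, read 6.70, 6.60 and 6.48 in the arrays labelled GATA3, against 7.76, 7.77 and 8.00 in the GFP control. It fell 2.38-fold, a log2 change of -1.25 (SE 0.10, adjusted p 0.000887), and the groups were apart by about a full log2 unit. The other probe sets of SLC7A2 lay near the floor of the array in both groups and were not tested. SLC7A1 (CAT1), the widely expressed carrier of the same substrates, read 12.41, 12.38 and 12.49 in the arrays labelled GATA3, against 12.45, 12.45 and 12.43 in the GFP control. Its brightest probe set had a change of -0.02 (95% confidence interval -0.12 to 0.08, adjusted p 0.757). Its 4 other probe sets spanned -0.92 to 0.31, of which only 1 passed, with a log2 change of -0.37 (adjusted p 0.0402). SLC7A3, SLC7A4 and SLC7A14 lay at the floor of the array.

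**Figure D2:**
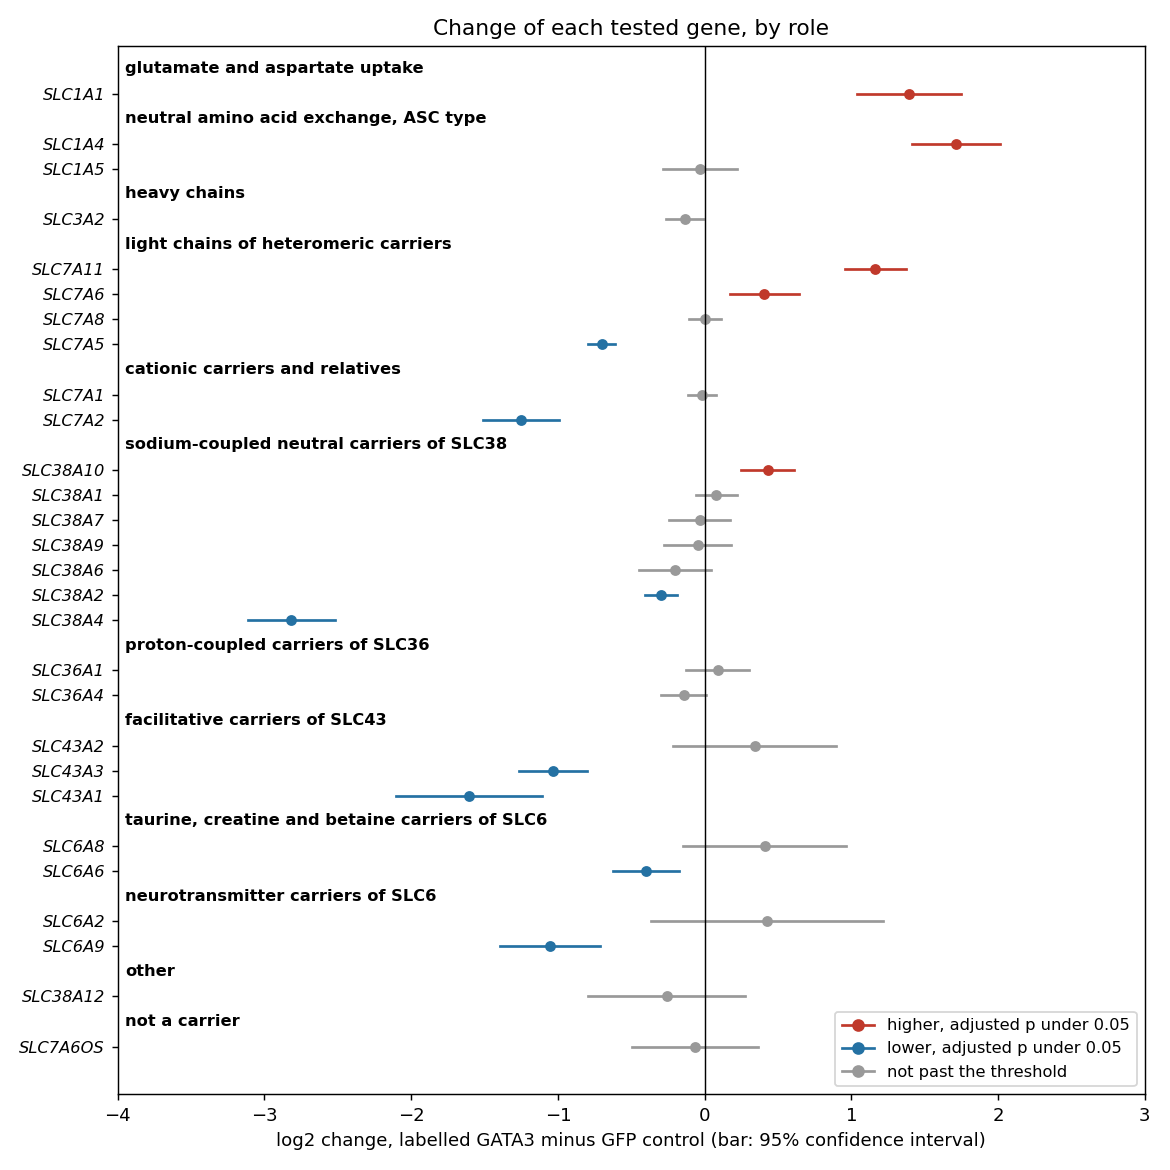
Log2 change of the 28 tested genes, arrays labelled GATA3 minus GFP control, by role, with bars for the 95% confidence interval from limma and colours for the call. Of the genes over the detection level in both groups, SLC1A4 and SLC7A11 stand over 1 and SLC43A1, SLC7A2 and SLC43A3 under -1, while the points of SLC1A1, SLC38A4 and SLC6A9 rest on values under that level, for which the text gives bounds.

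Among the SLC38 carriers, which move small neutral amino acids such as glutamine and alanine, the largest difference was the fall of SLC38A4. SLC38A4 (SNAT4) read 2.72, 2.61 and 2.60 in the arrays labelled GATA3, all under the detection level, against 5.49, 5.23 and 5.66 in the GFP control. It was at least 2.75-fold lower (adjusted p 8.06e-05), and its other probe set was under the detection level on all arrays. SLC38A2 (SNAT2), which is raised when amino acids are short, read 12.39, 12.42 and 12.49 in the arrays labelled GATA3, against 12.67, 12.77 and 12.75 in the GFP control. It fell by 0.30 on the log2 scale (SE 0.04, adjusted p 0.00650), and its 2 other probe sets fell by 0.29 and 0.34. The fall was small, and its call was lost when arrays were centred on their medians (adjusted p 0.132). SLC38A1 (SNAT1) read 12.94, 12.93 and 12.85 in the arrays labelled GATA3, against 12.82, 12.74 and 12.93 in the GFP control. Its change of 0.08 did not pass (adjusted p 0.343), while another of its probe sets rose by 0.24 (adjusted p 0.0298) and a dimmer one had a change of -0.50 (adjusted p 0.120). SLC38A1, SLC38A2 and SLC38A4 lie next to each other on chromosome 12 with no protein-coding gene between them. SLC38A10 read 8.95, 8.85 and 8.82 in the arrays labelled GATA3, against 8.53, 8.37 and 8.44 in the GFP control, a rise of 0.43 (adjusted p 0.0100). Its 2 other tested probe sets had changes of the opposite sign, -0.265 and -0.018, and did not pass (adjusted p 0.348 and 0.828). The latter repeated 5.07 on 5 arrays. SLC38A6, SLC38A7, SLC38A9 and SLC38A12 (TMEM104) had changes of -0.20, -0.03, -0.05 and -0.26, none past the threshold. SLC38A9 is the lysosomal carrier through which arginine is reported to mTORC1, and its 95% confidence interval was -0.28 to 0.18. SLC38A3, SLC38A5 and SLC38A11 lay at the floor.

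Both expressed neighbours of the SLC43 family on chromosome 11 were lower. SLC43A1 (LAT3), which lets branched-chain amino acids and phenylalanine cross without sodium, read 6.82, 6.52 and 6.06 in the arrays labelled GATA3, against 8.09, 8.01 and 8.12 in the GFP control. SLC43A1 fell 3.04-fold, a log2 change of -1.61 (SE 0.20, adjusted p 0.00359), and GATA3 replicate 3 was its lowest array. Without that array the change was -1.40. SLC43A3, known as a carrier of purine nucleobases and not of amino acids, read 11.36, 11.35 and 11.06 in the arrays labelled GATA3, against 12.36, 12.26 and 12.25 in the GFP control. It fell 2.05-fold (log2 change -1.03, SE 0.09, adjusted p 0.00114), and its other probe set fell by 1.04 on the log2 scale. RefSeq lists 1 protein-coding gene between SLC43A3 and SLC43A1. SLC43A2 (LAT4), on another chromosome, read 6.04, 6.02 and 6.67 in the arrays labelled GATA3, against 6.04, 5.62 and 6.04 in the GFP control. Its change of 0.34 did not pass (adjusted p 0.304), and 3 of its arrays shared the value 6.04.

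The proton-coupled carriers SLC36A1 (PAT1) and SLC36A4 (PAT4) did not pass the threshold. SLC36A1, found on lysosomes and at the cell surface, read 8.67, 8.50 and 8.50 in the arrays labelled GATA3, against 8.47, 8.36 and 8.56 in the GFP control (change 0.09, 95% confidence interval -0.13 to 0.31). SLC36A4 read 9.52, 9.57 and 9.45 in the arrays labelled GATA3, against 9.58, 9.69 and 9.70 in the GFP control (change -0.14, adjusted p 0.152). Its groups did not overlap, and its other probe set had a change of -0.38 (adjusted p 0.0578).

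Among the SLC6 carriers, only those for taurine, creatine, glycine and noradrenaline had a tested probe set. SLC6A6, the taurine carrier, read 10.88, 10.90 and 10.65 in the arrays labelled GATA3, against 11.12, 11.18 and 11.33 in the GFP control. It fell by 0.40 on the log2 scale (SE 0.09, adjusted p 0.0266). Its 2 other probe sets had changes of -0.21 and -0.99 and did not pass. The call was lost without GATA3 replicates 1 or 2 (adjusted p 0.0528 and 0.0538) or GFP control replicates 1, 2 or 3 (0.0534, 0.0817 and 0.0850). SLC6A9 (GlyT1), a glycine carrier, read 3.34, 3.47 and 3.32 in the arrays labelled GATA3, all under the detection level, against 4.71, 4.34 and 4.23 in the GFP control, barely over it. It was at least 1.35-fold lower (adjusted p 0.00413). SLC6A8, the creatine carrier, read 6.55, 6.60 and 6.70 in the arrays labelled GATA3, against 6.47, 5.71 and 6.46 in the GFP control. The groups did not overlap, yet the change of 0.41 did not pass (adjusted p 0.234). A dimmer tested probe set of SLC6A8 had a change of -0.08 with overlapping groups (adjusted p 0.390). Probe sets shared by SLC6A8 and its pseudogene copies carry several symbols and were left out. SLC6A2, the noradrenaline carrier, read 4.73 on 4 of the 6 arrays and 5.83 in GATA3 replicate 3, with a change of 0.42 (adjusted p 0.368). The other SLC6 members read at most 4.50, a single array of SLC6A11, and include the amino acid carriers SLC6A14, SLC6A15, SLC6A19 and SLC6A20. SLC7A6OS had a change of -0.07 (adjusted p 0.804), and the 5 antisense RNAs read at most 2.30.

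Of the 13 genes with more than 1 tested probe set, 4 had the same call in all of them (SLC1A4, SLC7A11, SLC38A2 and SLC43A3) and 4 had no call (SLC36A4, SLC38A7, SLC6A8 and SLC7A6OS). In SLC38A1, SLC38A10, SLC6A6, SLC7A1 and SLC7A6 the calls differed between probe sets. No gene was called in both directions. The counts of genes thus rest on the choice of probe set in 5 cases.

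**Figure D3:**
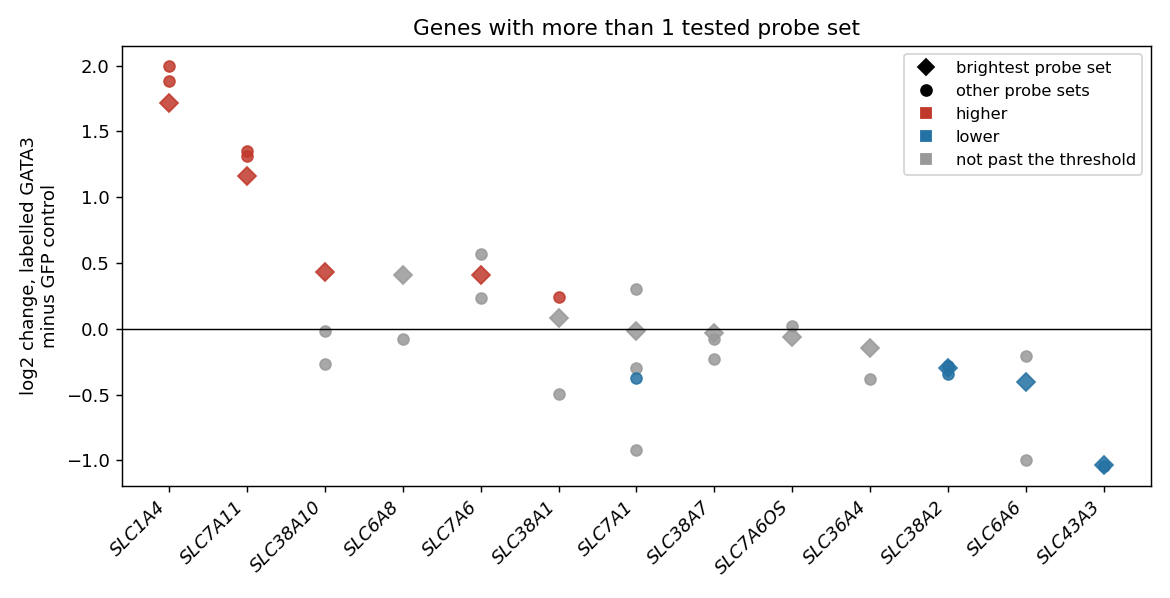
Log2 change of every tested probe set, arrays labelled GATA3 minus GFP control, for the 13 genes with more than 1, with a diamond for the brightest and circles for the others, coloured by call. The probe sets of SLC1A4 and SLC7A11 all lie over 1, while those of SLC7A1 span -0.92 to 0.31.

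Genes of related pathways showed smaller changes in both directions, apart from TFEB. Of all 10814 tested genes, 14.8% were higher and 14.5% lower, the background for the counts of this list and those that follow. Whether any list differs from that background was not tested. Of 21 tested amino acid response genes, the ATF4 targets and their regulators, 4 were higher and 2 lower, with a median change of 0.04. ATF4 itself read 12.51 ± 0.05 in the arrays labelled GATA3 and 12.48 ± 0.07 in the GFP control (SD, n = 3 each), a change of 0.04 (95% confidence interval -0.09 to 0.16, limma adjusted p 0.612). CTH, which makes cysteine from cystathionine, read 10.11, 10.23 and 9.89 in the arrays labelled GATA3, against 8.96, 9.26 and 9.62 in the GFP control. It rose by 0.79 (adjusted p 0.0294) and by 0.98 by its other probe set. The call of CTH was lost without GATA3 replicates 1 or 2 (adjusted p 0.0825 and 0.0935) or GFP control replicates 1 or 2 (0.0643 and 0.0993). The kinase gene EIF2AK3 (PERK) rose by 0.64. DDIT4, an inhibitor of mTORC1, had a log2 change of -0.67 (adjusted p 0.00553), lower in every array labelled GATA3. ALDH18A1, an enzyme of proline synthesis, fell by 0.30 (adjusted p 0.0186), which was lost without GATA3 replicates 1 or 2 (0.0586 and 0.0599) and with median centring (0.0988). Its other probe set did not pass (adjusted p 0.123). The other calls were ASNS (0.19), asparagine synthetase, and TRIB3 (0.29), a pseudokinase. The count higher was 1 without GATA3 replicate 1 or GFP control replicates 1 or 2, and 2 without GATA3 replicate 2 or GFP control replicate 3. The count lower was 1 without GATA3 replicates 1 or 2.

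Of 30 tested genes of amino acid sensing by mTORC1, 3 were higher and 4 lower, with a median change of -0.04. TFEB, a transcription factor of lysosome genes that mTORC1 holds in the cytoplasm, read 9.57, 9.76 and 9.25 in the arrays labelled GATA3, against 6.30, 6.28 and 6.18 in the GFP control. It rose 9.66-fold, a log2 change of 3.27 (SE 0.14, adjusted p 8.35e-05), and by 1.25 by its other probe set (adjusted p 0.00231). The falls were smaller, with MLST8, a subunit of mTORC1, at -0.53, TSC2, its inhibitor, at -0.49, and LARS1, the leucyl-tRNA synthetase, at -0.38. Those of MLST8 and TSC2 were lost without GATA3 replicate 2 (adjusted p 0.0843 and 0.0609), and without GFP control replicates 1, 2 or 3 (0.0923 to 0.102 for MLST8 and 0.0550 to 0.0611 for TSC2). Of the dimmer LARS1 probe sets, 1 passed (adjusted p 0.0355), and those with adjusted p of 0.175 and 0.0911 did not. Without GATA3 replicate 2 or GFP control replicates 2 or 3, 1 gene was higher and 1 lower, and without GFP control replicate 1, 2 were lower.

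Of 19 tested enzymes of glutamine, glutamate, arginine and branched-chain amino acids, 2 were higher and 3 lower, with a median of 0.10. GLUL, glutamine synthetase, read 10.37, 10.42 and 10.37 in the arrays labelled GATA3, against 11.03, 10.97 and 11.11 in the GFP control. It fell by 0.65 on the log2 scale (SE 0.05, adjusted p 0.000765), and its 2 other probe sets fell as well. GLUD1, glutamate dehydrogenase, fell by 0.62 (adjusted p 0.0433) and GOT1, the cytosolic aspartate aminotransferase, rose by 0.56 (adjusted p 0.00476). IVD, of leucine breakdown, fell by 0.36 (adjusted p 0.00985). Its 2 other probe sets did not pass (adjusted p 0.0764 and 0.225), and its call was lost with cyclic loess or median centring (0.0642 and 0.0681). The call of GLUD1 was lost without any one array except GFP control replicate 2 (adjusted p 0.0839 to 0.127), and 4 genes were higher without GATA3 replicate 3. GLUD1 has close copies in the genome, so what its probe sets read is uncertain.

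Of 16 tested genes of cystine use and glutathione, 3 were higher and 3 lower, with a median of 0.04. GSR, glutathione reductase, read 10.12, 10.28 and 10.39 in the arrays labelled GATA3, against 9.27, 9.27 and 9.51 in the GFP control. It rose by 0.92 on the log2 scale (SE 0.10, adjusted p 0.00264), and its other probe set read 0.55 without passing (adjusted p 0.0897). GSS, glutathione synthetase, rose by 0.31 (adjusted p 0.00424). AIFM2, a suppressor of ferroptosis, rose by 0.37 (adjusted p 0.0285), and its other probe set read -0.12. CHAC2, which degrades glutathione, fell by 0.38 (adjusted p 0.0298). The other lower calls were NQO1 (-0.22, adjusted p 0.023) and NFE2L2 (-0.14, adjusted p 0.0391). The subunits of the enzyme that starts glutathione synthesis, GCLC and GCLM, had changes of 0.26 and -0.15 that did not pass. The call of AIFM2 was lost without GATA3 replicates 1 or 2 (0.0753 and 0.0906) or GFP control replicates 2 or 3 (0.101 for each). That of CHAC2 was lost without GATA3 replicate 1 (0.0683) or GFP control replicates 1, 2 or 3 (0.0697, 0.0963 and 0.105). Without GATA3 replicate 3, 6 genes were higher. The count lower was 0 without GATA3 replicate 1 or GFP control replicates 1 or 3, and 1 without GATA3 replicate 2 or GFP control replicate 2, by the same limma fit.

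Of 12 tested amino acid carriers of other families, 1 was higher and 1 lower, with a median of 0.11. SLC25A44, a mitochondrial carrier of branched-chain amino acids, rose by 0.36 on the log2 scale (adjusted p 0.00786). A dimmer probe set of SLC25A44 read 0.25 without passing (adjusted p 0.130). SLC15A4, a lysosomal carrier of histidine and peptides, fell by 0.26 (adjusted p 0.0417), and its other probe set did not pass (adjusted p 0.136). That fall was lost without any one array except GATA3 replicate 2 (adjusted p 0.0682 to 0.133), and 3 carriers were higher without GATA3 replicate 3. These 5 lists had 14.8% of all tested genes higher and 14.5% lower as their background, and for none of them was a difference from other genes tested.

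**Figure D4:**
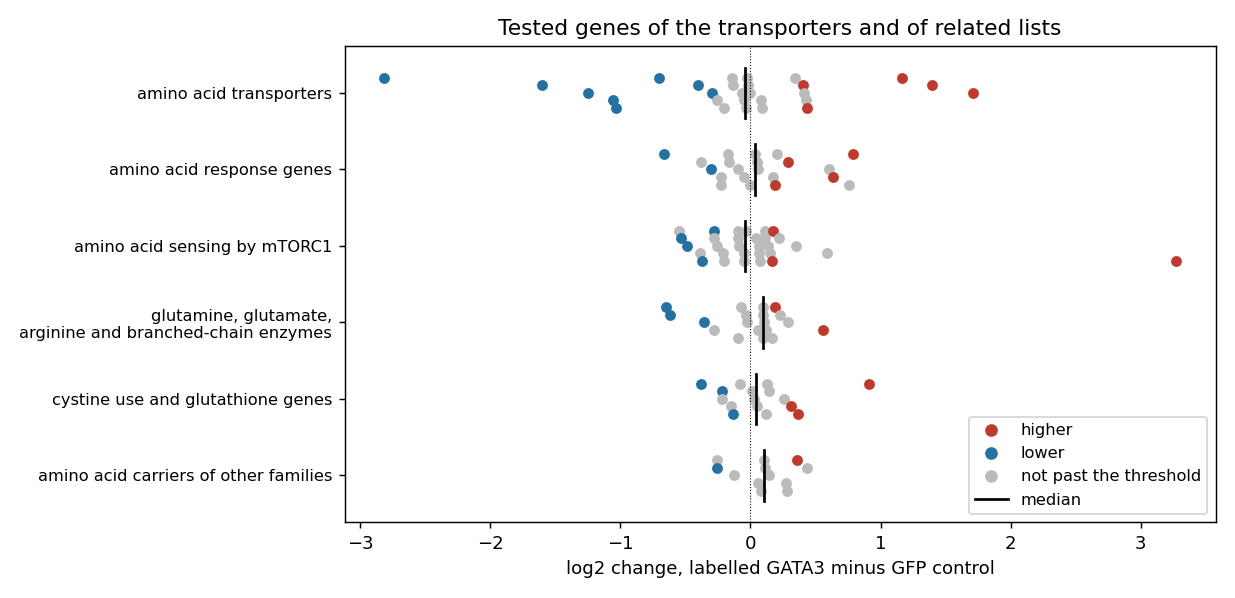
Log2 change, arrays labelled GATA3 minus GFP control, of each tested gene among the amino acid transporters and 5 related lists, coloured by call, with a black line at the median of each. The medians lie between -0.04 and 0.11, and the widest spread is among the transporters and, through TFEB alone, the mTORC1 list. The lowest transporter point, SLC38A4, rests on values under the detection level in the arrays labelled GATA3.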

How the data were processed

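Gene expression was measured on 6 single-colour Affymetrix arrays of total RNA. GCRMA log2 values were deposited, made by the authors as the submitters' processing notes give it, with no version in those notes. The log2 scale is read from their range, since no header states it. GCRMA leaves probe sets without signal at a floor, here 2.16, which 56 of the 147 member probe sets held on all arrays, or at a repeated value of their own. Precision is limited by the number of arrays.

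No further normalization was applied. The 62 control probe sets were left out. Probe sets over 4 on at least 3 of 6 arrays (23785) were fitted with limma 3.58.1 (lmFit, eBayes with an intensity trend) in R 4.3.3, without covariates, and p-values were adjusted by Benjamini-Hochberg over all of them with a threshold of 0.05. Each gene was given by the tested probe set whose mean over the 6 arrays was highest. If no array of a group exceeded 4, the fold is a lower bound against 4. Probe sets with several symbols were left out, 9 of which named a family member. The fit was also run on simulated data with independent noise and far fewer changed probe sets than were called here. That run does not show how the fit behaves on these arrays. Every tested transporter was named, and of each related list up to 4 genes with the largest change past the threshold. ATF4, ASNS, TRIB3, GCLC, GCLM, NQO1 and NFE2L2 were named after their values were seen. The members and lists were chosen with earlier results of these data known. No column of other samples was present. Same-numbered arrays did not deviate together (correlations -0.135, 0.159 and -0.109 for replicates 1, 2 and 3), so the fit has no replicate block.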

Additional observations from a re-analysis of the deposited data

How the results depend on the processing

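Of the 13 called transporters, 10 kept their call and direction under the 13 alternatives that could test them. Among these 10 are SLC1A1, SLC38A4 and SLC6A9, which entered the test through 1 group alone and had to differ. Their kept calls are therefore no further support. SLC6A6 and SLC7A6 lost it without a filter on low values (adjusted p 0.1000 and 0.0868), with the replicate block (0.0934 and 0.0702) and without most single arrays, and SLC38A2 with median centring. With 1 array left out, higher and lower transporter genes numbered 4 to 5 and 7 to 8, and their probe sets 8 to 10 and 9 to 14. With the suffix _at alone they numbered 3 and 3 (probe sets 4 and 4), since SLC1A4, SLC7A5, SLC7A6, SLC38A2, SLC38A4, SLC43A3 and SLC6A9 have no tested probe set of that kind.

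Over all probe sets, higher and lower calls numbered 1796 to 3581 and 1801 to 3752 with 1 array left out, and lower calls 1767 without a filter and 2106 with the replicate block. They were 4264 and 5123 with array weights and 1494 and 1867 with _at alone. Cyclic loess gave 3664 higher and 3423 lower, and median centring 3532 and 3333. Only GATA3 replicate 2 deviated most like its same-numbered control. The replicate block left 4 transporters higher and 7 lower.

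List counts below are given as higher or lower. Amino acid response genes had 1 to 6 higher and 1 to 2 lower with 1 array left out. They had 1 lower without a filter, with median centring or with _at alone, and 1 higher and 1 lower with the replicate block. The mTORC1 list had 1 to 4 higher and 1 to 4 lower with 1 array left out, 5 and 6 higher with cyclic loess and array weights, and 1 lower without a filter or with _at alone. The glutamine, glutamate, arginine and branched-chain enzymes had 2 to 4 higher and 2 to 3 lower with 1 array left out. They had 4 and 5 higher with median centring and array weights, 1 lower with the replicate block and 0 lower with _at alone. Cystine and glutathione genes had 2 to 6 higher and 0 to 2 lower with 1 array left out and 6 higher with array weights. They had 0 lower without a filter and 1 lower with median centring or the replicate block. Carriers of other families had 1 to 3 higher and 0 to 1 lower with 1 array left out. They had 2 higher over the stricter level of 5 or with _at alone, 3 with cyclic loess or median centring and 4 with array weights. They had 0 lower without a filter, with cyclic loess, median centring or the replicate block. Leaving out arrays or probe sets leaves less to test, and the cause of the other shifts was not tested.

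Among the named genes of the lists, further calls were lost without a filter on low values by CTH, ALDH18A1, MLST8, TSC2, GLUD1, CHAC2, AIFM2 and SLC15A4 (adjusted p 0.0525 to 0.167). With the replicate block they were lost by CTH, ALDH18A1, GLUD1, IVD, CHAC2 and SLC15A4 (0.0535 to 0.0881). SLC15A4 lost its call with cyclic loess and median centring (0.106 and 0.162), and IVD with _at alone (-0.173, 0.220).

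Changes near 0 turned sign without passing. With median centring SLC1A5, SLC38A7, SLC38A9, SLC7A1, SLC7A6OS and SLC7A8 read 0.049, 0.044, 0.031, 0.060, 0.013 and 0.078. With cyclic loess SLC38A7, SLC38A9, SLC7A1, SLC7A6OS and SLC7A8 read 0.063, 0.047, 0.004, 0.027 and 0.020. With 1 array left out SLC1A5 ran between -0.133 and 0.046, SLC38A7 between -0.085 and 0.027, SLC38A9 between -0.094 and 0.017, SLC7A1 between -0.052 and 0.006, SLC7A6OS between -0.241 and 0.031, and SLC7A8 between -0.001 and 0.000. AIFM2 read -0.116 with _at alone, by its other probe set.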
